A study of Mus musculus with 9 samples.

Results

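Atf3 and Ifrd1 are 2 stress-response genes of the 55536 genes measured by RNA sequencing of mouse muscle. They were selected on their levels in old mice, where both stood higher in muscle after GW8510 than after vehicle, so that difference is described below and carries no test. Total RNA came from muscle of male ICR mice, an outbred stock, in 9 libraries. The aged GW8510 group (libraries 1, 3 and 4) was 18 months old and received 2 mg/kg GW8510 by intraperitoneal injection daily for 14 days, in 0.5% sodium carboxymethylcellulose. The aged vehicle group (libraries 1, 3 and 4) was also 18 months old, and the young vehicle group (libraries 2, 3 and 4) was 2 months old. GW8510 is a benzenesulfonamide, and the title of the study names p21-activated kinases as its interaction partners. The labels name neither the muscle nor the animal behind each library, and p-values below therefore reflect the spread among these samples, which may be technical. No genotype other than the ICR stock is given.

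ATF3 is a basic leucine zipper (bZIP) transcription factor of the ATF/CREB family. Its gene is nearly silent in resting cells and is switched on within hours by the integrated stress response, by JNK and p38 MAP kinases, by cAMP signalling and, in muscle, by exercise and injury. IFRD1, also called TIS7 or PC4, is a transcriptional coregulator without a known DNA-binding domain. It was found as a phorbol ester (TPA) and nerve growth factor induced immediate early gene, it binds SIN3 and HDAC corepressor complexes, and in muscle it is known to work with MyoD and MEF2C and to restrain NF-kB p65 during regeneration.

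The RefSeq promoters of both genes are shown first because ATF and CREB proteins, ATF3 among them, bind cAMP response elements, and ATF3 is known to act on its own promoter. Each sequence is the 250 bases before the RefSeq transcription start, on the minus strand of GRCm38.p6, and capitals mark ATF/CREB-type motifs. Atf3 lies at chr1:191183334-191183583 and Ifrd1 at chr12:40223190-40223439.
Atf3: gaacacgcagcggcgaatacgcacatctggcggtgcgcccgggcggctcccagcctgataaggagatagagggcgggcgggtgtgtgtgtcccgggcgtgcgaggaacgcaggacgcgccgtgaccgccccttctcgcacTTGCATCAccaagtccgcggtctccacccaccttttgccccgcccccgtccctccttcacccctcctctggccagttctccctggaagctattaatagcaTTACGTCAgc
Ifrd1: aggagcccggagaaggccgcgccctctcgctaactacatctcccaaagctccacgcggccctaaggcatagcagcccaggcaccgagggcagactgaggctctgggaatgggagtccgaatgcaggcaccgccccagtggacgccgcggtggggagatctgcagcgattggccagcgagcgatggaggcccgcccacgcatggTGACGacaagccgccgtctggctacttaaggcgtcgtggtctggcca

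In the Atf3 promoter the CREB/ATF variant TTACGTCA lay at positions -10 to -3, counted back from the start. It is on the strand of the gene, and it holds the core of the cAMP response element (TGACG, here on the opposite strand) at -7 to -3. A match to the C/EBP-ATF composite element TGATGNAA, read as TTGCATCA on the strand of the gene, lay at -110 to -103. In the Ifrd1 promoter the core TGACG lay at -47 to -43, and neither of the longer elements matched. On either strand, TTACGTCA is held by 0.447% of 32851 mouse RefSeq promoters of the same length, TGATGNAA by 3.45% and TGACG by 17.8%. The full cAMP response element TGACGTCA (1.55% of promoters), the AP-1 site TGANTCA (6.75%), the E-boxes CACGTG (6.02%) and CAGCTG (13.0%), the EGR site GCGGGGGCG (2.57%), the CArG box (1.47%) and TATAAA (12.4%) matched in neither window. CCAAT (33.8%) matched at -84 to -80 of Ifrd1 on the opposite strand. These matches describe letters in the window before 1 start per gene, and no binding was measured.

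In the annotation (GENCODE M21, GRCm38), Atf3 (ENSMUSG00000026628) covers chromosome 1, 191170296 to 191218039, minus strand, with 3 transcripts of up to 4 exons. Ifrd1 (ENSMUSG00000001627) covers chromosome 12, 40201567 to 40248504, minus strand, with 10 transcripts of up to 12 exons. Both gene spans start upstream of the RefSeq start used above. Ifrd1 is crossed by an antisense RNA gene, Gm7008, at 40222758 to 40229184 on the plus strand. Gm7008 averaged 37.5 counts in aged GW8510, 45.5 in aged vehicle and 43.4 in young vehicle libraries. Whether counting used strand is not given in the sources used here, so reads of Ifrd1 and Gm7008 may not be told apart. The small RNA gene inside Atf3, Gm24748, averaged 0.0 counts in each group.

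The libraries held 21718965 to 27437970 expected counts. Levels are given as CPM, the count scaled to a common library size, where 3 counts correspond to 0.103 to 0.136 CPM, and both genes stood far above that in all 9. Markers of skeletal muscle fibres (10 genes, among them Acta1, Ckm and Myh4) summed to 135567 to 156799 CPM in aged GW8510, 126875 to 158654 in aged vehicle and 150845 to 187204 in young vehicle libraries, and none was at 0. Aged vehicle library 4 was the least like its own group, with a mean correlation of 0.942 over tested genes where the other 8 libraries had 0.956 to 0.971. In bulk tissue, fewer cells of a type and less RNA per cell cannot be told apart.

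Atf3 had 27.4, 16.9 and 67.3 CPM in aged GW8510 libraries 1, 3 and 4. It had 4.95, 10.1 and 4.68 CPM in aged vehicle libraries 1, 3 and 4, and 51.7, 48.0 and 61.1 CPM in young vehicle libraries 2, 3 and 4. The aged vehicle libraries were the 3 lowest of the 9, the highest was aged GW8510 library 4, and aged GW8510 libraries 1 and 3 lay between the aged vehicle and the young vehicle libraries. The means were 37.2 ± 26.6 CPM in aged GW8510, 6.57 ± 3.06 in aged vehicle and 53.6 ± 6.79 in young vehicle (SD, n = 3 each). In order of level, young vehicle came first, then aged GW8510, then aged vehicle. Young vehicle and aged GW8510, neighbours in that order, overlapped, whereas aged vehicle overlapped neither. Of tested genes, 3.89% had all aged vehicle libraries below aged GW8510, the comparison that picked Atf3, and 13.5% had them below young vehicle.

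Ifrd1 was more even. It had 81.6, 62.2 and 86.5 CPM in aged GW8510 libraries 1, 3 and 4. It had 38.1, 51.0 and 40.0 CPM in aged vehicle libraries 1, 3 and 4, and 58.2, 46.9 and 56.3 CPM in young vehicle libraries 2, 3 and 4. All 3 aged GW8510 libraries were above the other 6, while aged vehicle library 3 overlapped the young vehicle range. Of tested genes, 3.89% had all aged GW8510 libraries above aged vehicle, the comparison that picked Ifrd1, and 12.9% had them above young vehicle. The means were 76.7 ± 12.9 CPM in aged GW8510, 43.0 ± 6.96 in aged vehicle and 53.8 ± 6.06 in young vehicle (SD, n = 3 each). Aged GW8510 was thus the highest group for Ifrd1 and the middle group for Atf3, and aged vehicle was the lowest for both.

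**Figure D1:**
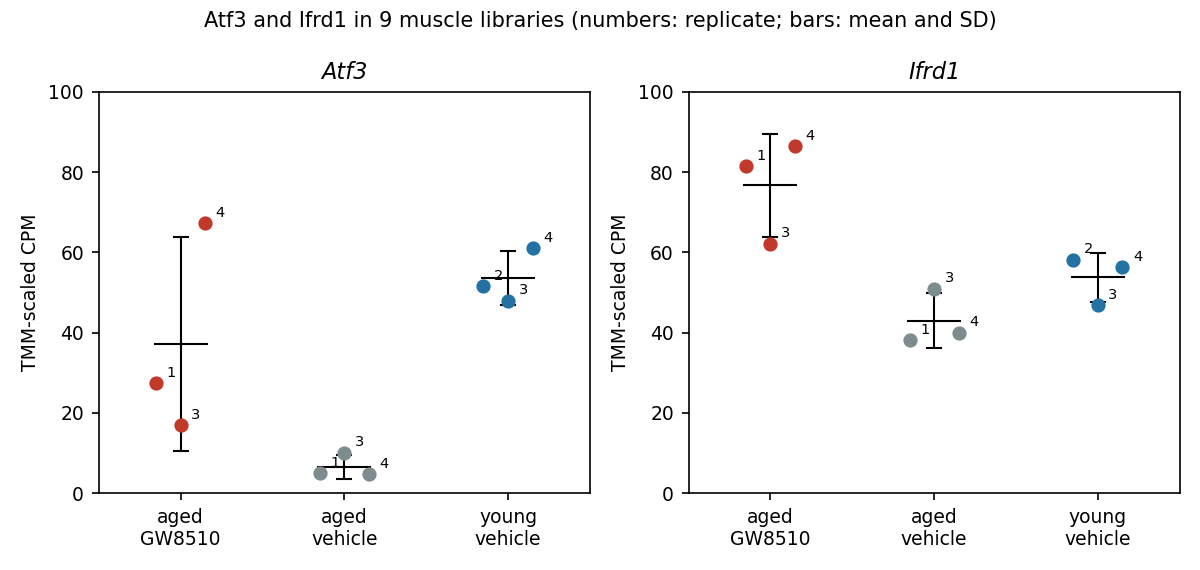
Levels of Atf3 (left) and Ifrd1 (right) in TMM-scaled CPM for each library, with the replicate number beside each point and bars for the group mean and SD (n = 3). Atf3 spreads from 16.9 to 67.3 CPM in aged GW8510, against 4.68 to 10.1 CPM in aged vehicle, and Ifrd1 from 62.2 to 86.5 CPM in aged GW8510, against 38.1 to 51.0 CPM in aged vehicle.

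The genes differed in how far libraries of 1 group stood apart. For Atf3 the highest aged GW8510 library held 3.99 times the CPM of the lowest, against 2.16 times in aged vehicle and 1.27 times in young vehicle. The SD of its log2 CPM in aged GW8510 was 1.01, larger than in 95.5% of the 14384 genes tested, whose median SD in that group was 0.26. In aged vehicle it was 0.61 (79.0% of genes had less, median 0.32) and in young vehicle 0.18 (38.5%, median 0.22). For Ifrd1 the SD of log2 CPM was 0.25 in aged GW8510 (48.2% of genes had less), 0.22 in aged vehicle (34.2%) and 0.17 in young vehicle (35.2%), so its spread was ordinary in each group. All 6 adipocyte markers (Adipoq, Plin1, Cfd, Lep, Retn and Cidec) had their highest level in aged GW8510 library 4, the library with most Atf3. Their summed level was 3.76 to 137.7 CPM in aged GW8510, 6.01 to 24.1 in aged vehicle and 16.4 to 44.7 in young vehicle. Lep was at 0 in aged GW8510 library 1, aged vehicle library 4 and young vehicle library 3 and the other 5 in none, and their part in the Atf3 level of that library was not tested.

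Between aged GW8510 and aged vehicle, the comparison on which the genes were picked, the fitted log2 fold change of Atf3 was 2.50 ± 0.49 (SE), a 5.65-fold difference. Of the 14384 genes, 26 had a more positive fold change. That of Ifrd1 was 0.83 ± 0.18, a 1.78-fold difference, with 468 genes above it. Over all tested genes the median was 0.01. The libraries of both genes did not overlap, which held in that direction for 3.89% of tested genes. Nothing is read from this or from the ranks, because the same values chose the genes. Leaving out aged GW8510 library 4 brought the Atf3 value to 1.74, and over the 9 fits that each leave out a library it ran from 1.74 to 2.95. For Ifrd1 the range was 0.73 to 0.97. The authors' deposited table gives a fold change of 5.63 for Atf3 and 1.77 for Ifrd1 in this comparison.

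The remaining pairs share libraries with that comparison and are likewise given without a test. Aged GW8510 over young vehicle had a log2 fold change of -0.53 ± 0.46 (SE) for Atf3, which became -1.29 without aged GW8510 library 4, and of 0.51 ± 0.18 for Ifrd1, a 1.43-fold difference. The Ifrd1 libraries did not overlap there, as was so in that direction for 12.9% of tested genes. Aged vehicle over young vehicle had -3.03 ± 0.50 for Atf3, an 8.15-fold difference with 69 genes further down, and -0.32 ± 0.18 for Ifrd1. The Atf3 libraries did not overlap, as was so in that direction for 13.5% of tested genes. The authors' deposited tables give fold changes of 0.695 for Atf3 and 1.43 for Ifrd1 in aged GW8510 over young vehicle, and 0.123 for Atf3 and 0.806 for Ifrd1 in aged vehicle over young vehicle.

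The 1 contrast that leaves the treatment difference out, and was therefore tested, set the mean of both 18-month groups on the log2 scale against young vehicle. Atf3 fell by 1.78 on the log2 scale (SE 0.38), a 3.43-fold difference, with an adjusted p of 0.0349 (edgeR quasi-likelihood F test, two-sided, Benjamini-Hochberg over all genes). Past the threshold of 0.05 were 526 genes, 3.66% of those tested. Of these, 191 (1.33%) were higher and 335 (2.33%) lower, or 128 higher and 387 lower of 515 with scaling by library totals alone, and 221 genes had a more negative fold change than Atf3. Of the 6 libraries from 18-month mice, 5 lay below all 3 young vehicle libraries, and aged GW8510 library 4 lay above them. Ifrd1 did not pass (log2 fold change 0.09, SE 0.16, adjusted p = 0.753). Its interval of 2 SE either way was -0.22 to 0.41.

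The Atf3 call sits close to the threshold. With each library left out in turn, the log2 fold change kept its sign in 9 of 9 fits, from -2.16 to -1.60, and the adjusted p ran from 0.00986 to 0.118. The call held in 3 fits. It was lost without aged GW8510 library 1 (adjusted p = 0.0808), aged GW8510 library 3 (0.0517), aged vehicle library 1 (0.0733), young vehicle library 2 (0.111), young vehicle library 3 (0.106) or young vehicle library 4 (0.118). Without aged GW8510 library 4, the library with most Atf3, the adjusted p was 0.00986.

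Markers of other cell types also differed in this contrast. By edgeR 2.33% of all tested genes were called lower. Of the 8 fibroblast markers, 2 fell, namely the collagens Col1a1 (17.8-fold) and Col3a1 (12.1-fold). Of 5 tested tendon cell markers 2 fell, Tnmd (9.60-fold) and Fmod (14.1-fold), and of 8 endothelial markers 1, Cldn5 (2.23-fold). Log2 fold changes were below 0 for all 8 fibroblast (median -1.35), 4 of 5 tendon cell (-3.26) and 7 of 8 endothelial markers (-0.33). An unadjusted p under 0.05 was found for 6, 4 and 2 of them by edgeR, and for 3109 of all 14384 tested genes. The markers named in this paragraph were chosen after their values were seen. Fibroblast markers summed to 253.4 to 550.3 CPM in aged GW8510, 112.4 to 487.2 in aged vehicle and 950.5 to 2006 in young vehicle. Tendon cell markers summed to 58.0 to 96.1 CPM in aged GW8510, 39.2 to 100 in aged vehicle and 159.0 to 327.8 in young vehicle, and endothelial markers to 279.3 to 453.2, 223.7 to 313.4 and 352.0 to 409.5 CPM in the same order of groups. Comp, a tendon marker, was at 0 in aged vehicle library 4 and no other marker of these lists was at 0 in a library of the series, and their part in the lower Atf3 of 18-month muscle was not tested. No marker of the other 8 lists passed by edgeR or limma-voom. DESeq2 on the same genes called 1 macrophage marker (Mrc1) and 1 muscle fibre marker (Acta1). Of all 14384 tested genes, limma-voom called 597 and DESeq2 1401. Without the filter on low counts, edgeR called Mrc1 and the neutrophil markers S100a8 and S100a9, and DESeq2 called Mrc1 and S100a8. Of all 25713 genes with a count, edgeR called 1012 and DESeq2 1325. S100a8 was at 0 in all young vehicle libraries, so it was called higher in 18-month muscle, opposite to Mrc1. DESeq2 did not call Fmod, and it also called the fibroblast marker Pdgfra. In those lists 6 of 7 Schwann cell markers had a negative log2 fold change (median -1.14), and their sum was 27.6 to 123.6 CPM in aged GW8510, 21.5 to 108.6 in aged vehicle and 117.8 to 171.2 in young vehicle. All 8 macrophage markers had a negative log2 fold change (median -0.69), and their sum was 87.5 to 156.0 CPM in aged GW8510, 71.5 to 147.2 in aged vehicle and 93.5 to 265.9 in young vehicle. No Schwann cell or macrophage marker was at 0, and by edgeR 3 of 7 Schwann cell and 4 of 8 macrophage markers had an unadjusted p under 0.05. All 5 tested erythroid markers had a positive log2 fold change (median 1.19), and none had an unadjusted p under 0.05 by edgeR.

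**Figure D2:**
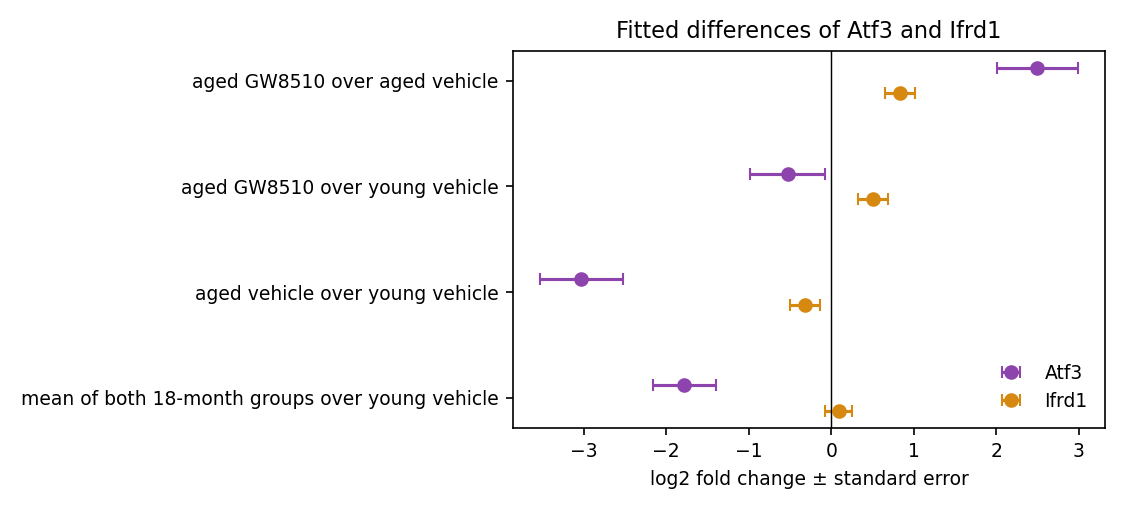
Fitted log2 fold changes of Atf3 and Ifrd1 in 4 contrasts, with bars of 1 standard error. Atf3 runs from -3.03 in aged vehicle over young vehicle to 2.50 in aged GW8510 over aged vehicle, and Ifrd1 from -0.32 to 0.83. Only the mean of both 18-month groups over young vehicle was tested.

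Per length, in the TPM values that the authors deposited, the balance of both genes differed between groups. Atf3 had 14.49, 8.72 and 40.15 TPM in aged GW8510 libraries 1, 3 and 4. It had 3.03, 7.35 and 3.76 TPM in aged vehicle libraries 1, 3 and 4, and 37.13, 29.38 and 36.68 TPM in young vehicle libraries 2, 3 and 4. Ifrd1 had 73.35, 46.91 and 54.39 TPM in the aged GW8510 libraries, 33.04, 39.1 and 34.67 TPM in the aged vehicle libraries and 50.25, 31.3 and 44.0 TPM in the young vehicle libraries. Ifrd1 TPM was thus above Atf3 TPM in all 9 libraries. The ratio of Ifrd1 to Atf3 was 5.06, 5.38 and 1.35 in aged GW8510, 10.9, 5.32 and 9.22 in aged vehicle, and 1.35, 1.07 and 1.2 in young vehicle. Aged GW8510 library 4 had the ratio of a young vehicle library, and the other aged GW8510 libraries stood next to aged vehicle library 3. On the log2 scale, the ratio of mean TPM between aged GW8510 and aged vehicle was 2.16 for Atf3 and 0.71 for Ifrd1.

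The order of the Ifrd1 libraries depended on the unit. By CPM the highest was aged GW8510 library 4, whereas by TPM it was aged GW8510 library 1. A count divided by its TPM gives, up to a constant of each library, the mean transcript length that the authors' estimate used, and 287 genes with a single annotated transcript were used to set that constant. Relative to its own mean, the implied length of Ifrd1 was 0.76, 0.89 and 1.23 in aged GW8510 libraries 1, 3 and 4. It was 0.91, 0.94 and 1.0 in the aged vehicle libraries and 1.08, 1.20 and 1.0 in the young vehicle libraries. The longest was 1.61 times the shortest, a wider range than in 96.0% of 3352 genes with several transcripts (median 1.09), while genes with a single transcript had a median of 1.02. The extremes, aged GW8510 libraries 1 and 4, are of the same group, while no aged vehicle value was above a young vehicle value. Whether the implied length differs between groups was not tested. The annotated protein-coding transcripts of Ifrd1 run from 491 to 3378 bases, and levels of single transcripts were not analysed here. Atf3 was at 1.04 to 1.05 in 7 libraries, and at 0.80 and 0.87 in aged vehicle libraries 3 and 4.

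**Figure D3:**
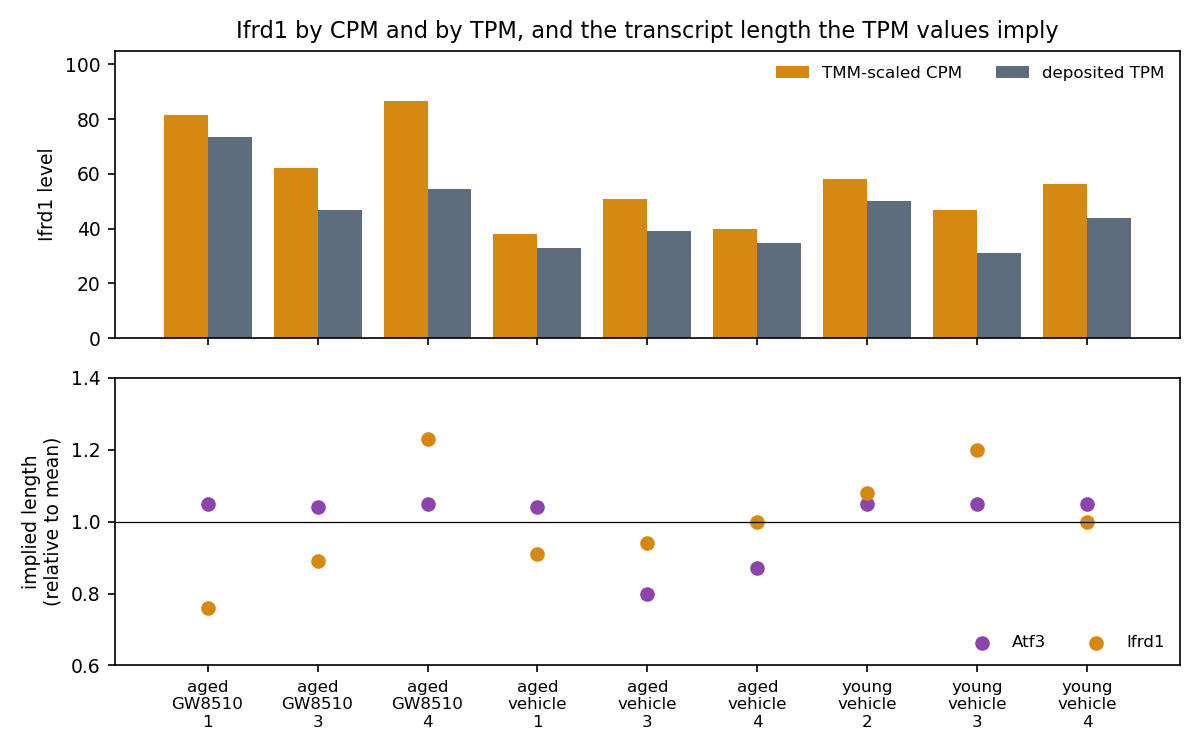
Top, Ifrd1 in TMM-scaled CPM and in deposited TPM for each library. Bottom, the transcript length implied by count over TPM, relative to each gene's mean over 9 libraries, where Ifrd1 spans 0.76 in aged GW8510 library 1 to 1.23 in aged GW8510 library 4 and Atf3 spans 0.80 to 1.05.

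The genes around ATF3 were counted in the tested contrast, the mean of both 18-month groups over young vehicle, where the median over all tested genes was 0.01. Of 28 bZIP partners and relatives of ATF3, 24 were tested. By edgeR 3 fell and 21 did not pass, where 2.33% of all tested genes were called lower. An unadjusted p under 0.05 was found for 9 of the 24 and for 3109 of all 14384 tested genes. No list member rose, the median log2 fold change was -0.18, and 19 of 24 values were below 0. Fosb, a Fos-family partner in AP-1 dimers, had 1.54, 0.443 and 2.36 CPM in aged GW8510, 0.218, 0.572 and 0.173 CPM in aged vehicle and 17.3, 5.84 and 6.94 CPM in young vehicle (log2 fold change -3.87, SE 0.52, adjusted p = 0.00834). Fosl2 (Fra-2), of the same family, averaged 10.4 ± 0.583 CPM in aged GW8510, 11.9 ± 2.12 in aged vehicle and 37.6 ± 17.2 in young vehicle (-1.76, SE 0.23, adjusted p = 0.00784). The third was Jdp2, the closest relative of ATF3 and a repressor of AP-1 targets. It had 3.13, 4.83 and 3.16 CPM in aged GW8510, 1.85, 2.78 and 1.52 CPM in aged vehicle and 5.95, 7.91 and 4.29 CPM in young vehicle (-1.13, SE 0.27, adjusted p = 0.0490). Its group means stood in the same order as those of Atf3. So did those of Fosb and Fos and, among genes given below, Dusp10, Egr1, Btg2 and Zfp36, but not those of Fosl2. The calls of Fosb and Fosl2 held in 9 of 9 fits with a library left out, with adjusted p up to 0.0346 and 0.0273, and that of Jdp2 in 1, with adjusted p from 0.0361 to 0.217. Fos averaged 26.7 ± 24.2 CPM in aged GW8510, 10.4 ± 11.2 in aged vehicle and 94.5 ± 11.5 in young vehicle and did not pass by edgeR (-2.51, SE 0.61, adjusted p = 0.0554). Neither Jun (-0.74, adjusted p = 0.207) nor Junb (-0.84, adjusted p = 0.142) passed by edgeR. The calls depended on the tool. Limma-voom called 4 of the 24 genes, Fos besides those 3. DESeq2 on the same genes called 7, adding Fos, Atf7, Jund and Maff. Without the filter on low counts, edgeR called 8, Fos and Junb among them. Of all 14384 tested genes, limma-voom called 597 and DESeq2 1401, in either direction, and edgeR without the filter called 1012 of 25713. Atf7, Jund and Maff are named after their values were seen.

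Of 23 genes of the integrated stress response, a pathway that switches on Atf3, 21 were tested. The list also holds targets of that response, Trib3 among them. By edgeR 1 rose, none fell and 20 did not pass, where 1.33% of all tested genes were called higher (median log2 fold change 0.01). Trib3, a pseudokinase gene induced by ATF4 and CHOP that restrains AKT, had 2.77, 3.63 and 1.87 CPM in aged GW8510, 1.53, 2.25 and 1.82 CPM in aged vehicle and 0.41, 0.592 and 0.312 CPM in young vehicle. It rose by 2.36 on the log2 scale (SE 0.35, adjusted p = 0.0119), opposite in sign to Atf3, and the 6 libraries of both 18-month groups did not overlap young vehicle, as was so in that direction for 6.61% of tested genes. That call held in 7 of 9 fits with a library left out, with adjusted p from 0.00926 to 0.0536. Limma-voom called only Trib3 of this list, and DESeq2 on the same 21 genes called Chac1 and Nupr1 too. Chac1 and Nupr1 are named after their values were seen. Of all 14384 tested genes, limma-voom called 597 and DESeq2 1401, and edgeR without the filter on low counts called 1012 of 25713. Atf4, the central factor of this response, averaged 172.3 ± 17.2 CPM in aged GW8510, 185.1 ± 20.1 in aged vehicle and 203.4 ± 22.4 in young vehicle and did not pass (-0.19, SE 0.13, adjusted p = 0.440). Ddit3, which encodes CHOP, had a log2 fold change of 0.18 (adjusted p = 0.688), and Ppp1r15a, the eIF2alpha phosphatase subunit GADD34, one of 0.01 (adjusted p = 0.980). Of 19 genes of the stress-activated MAP kinase cascades, 18 were tested and 1 fell, against 2.33% of all tested genes (median -0.11). It was Dusp10, a phosphatase of JNK and p38, at 27.9 ± 2.59 CPM in aged GW8510, 21.6 ± 13.1 in aged vehicle and 69.3 ± 10.1 in young vehicle (-1.50, SE 0.35, adjusted p = 0.0470). Its call held in 2 of 9 fits with a library left out, with adjusted p from 0.00192 to 0.166. Mapk14, the p38alpha kinase, had -0.13 (adjusted p = 0.567). Downstream, 10 of 14 genes reported as bound or regulated by ATF3 were tested and none passed by edgeR (median -0.43). Of these 10, 5 had an unadjusted p under 0.05, as had 3109 of all 14384 tested genes. Limma-voom called 0 of the 10 and DESeq2 1, Cdkn1a, which encodes the cell cycle inhibitor p21. Without the filter on low counts, edgeR called Cdkn1a and Ccnd1, which, like Cdkn1a, is named after its values were seen.

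Around Ifrd1, the other TPA-induced sequence genes were cloned in the same screen as TIS7. Of 6 such genes 5 were tested. By edgeR 3 fell and 2 did not pass, where 2.33% of all tested genes were called lower. All 5 had an unadjusted p under 0.05, as had 3109 of all 14384 tested genes. The median log2 fold change of the 5 was -1.23. Egr1, a zinc finger transcription factor, averaged 6.79 ± 1.02 CPM in aged GW8510, 4.99 ± 1.03 in aged vehicle and 23.6 ± 12.8 in young vehicle (-2.02, SE 0.27, adjusted p = 0.00864). Btg2, an antiproliferative coregulator, averaged 26.6 ± 3.75 CPM in aged GW8510, 25.0 ± 12.5 in aged vehicle and 60.3 ± 5.68 in young vehicle (-1.23, SE 0.24, adjusted p = 0.0268). Zfp36, tristetraprolin, which speeds decay of AU-rich mRNAs, averaged 12.1 ± 1.35 CPM in aged GW8510, 11 ± 1.61 in aged vehicle and 24.6 ± 8.79 in young vehicle (-1.09, SE 0.21, adjusted p = 0.0256). With a library left out, the call of Egr1 held in 9 of 9 fits, that of Zfp36 in 4 and that of Btg2 in 3, with adjusted p up to 0.0282, 0.107 and 0.110. Ifrd1 itself, at 0.09, had the only positive value of this set. Fos, also on the list above, was 1 of the 2 that did not pass by edgeR. Limma-voom called 4 of the 5, Fos among them. DESeq2 on the same genes called all 5, as did edgeR without the filter on low counts. The gene called there beside Fos was Nr4a1, named after its values were seen. Of all 14384 tested genes, limma-voom called 597 and DESeq2 1401, and edgeR without the filter called 1012 of 25713.

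No partner of IFRD1 passed by edgeR in this contrast. An unadjusted p under 0.05 was found for 4 of 13 corepressor, 1 of 12 NF-kB and 1 of 11 myogenic genes. Over all 14384 tested genes it was found for 3109. Limma-voom called no partner, and DESeq2 called 1, Myod1, as did edgeR without the filter on low counts. Of all genes, limma-voom called 597, DESeq2 on the same 14384 genes 1401, and edgeR without the filter 1012 of 25713. All 13 SIN3 and NCOR corepressor genes were tested. Their median log2 fold change was 0.02, and Hdac4, a class IIa histone deacetylase that holds MEF2 in check, had 0.14 (adjusted p = 0.736). All 12 NF-kB subunits and inhibitors were tested, with a median of -0.07, and Rela, which encodes p65, had -0.01 (SE 0.12, adjusted p = 0.962). All 11 myogenic factors were tested, with a median of 0.05. Of these Myod1 had -0.64 (adjusted p = 0.0812) and Mef2c 0.24 (adjusted p = 0.394). Ifrd2, the paralogue of Ifrd1, averaged 44.4 ± 8.76 CPM in aged GW8510, 39.0 ± 3.79 in aged vehicle and 41.0 ± 5.90 in young vehicle (0.02, SE 0.16, adjusted p = 0.950).

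**Figure D4:**
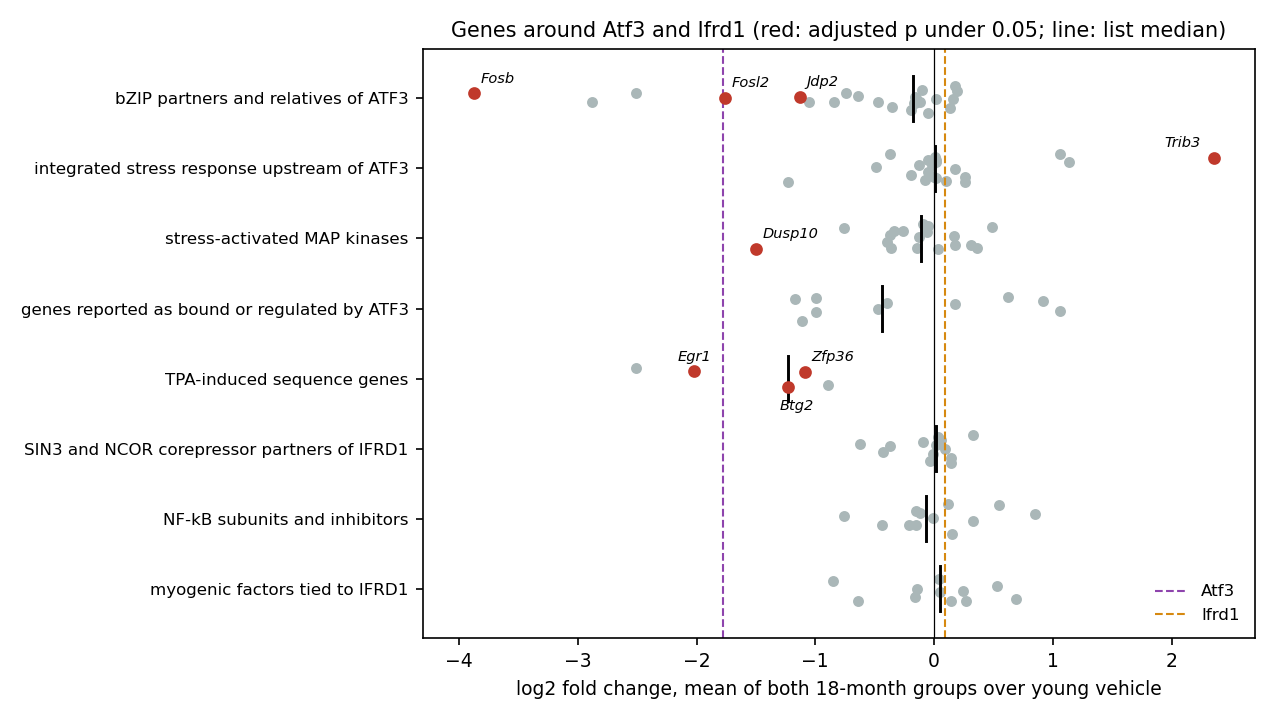
Log2 fold changes of the mean of both 18-month groups over young vehicle for tested members of the 8 gene lists, with red for an adjusted p under 0.05 and a black line at each list's median. Dashed lines mark Atf3 (-1.78) and Ifrd1 (0.09), and the named red genes are the 8 that passed.

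In aged GW8510 over aged vehicle no gene of the 8 lists passed by edgeR, DESeq2 or limma-voom, and by edgeR 12 of the 107 distinct genes tested had an unadjusted p under 0.05. As background only, since it includes the genes picked on this comparison, edgeR called 0.0% of all tested genes (647 had an unadjusted p under 0.05). Limma-voom called 0 genes, DESeq2 11 on the same 14384 genes and 9 on all 25713 with a count, and edgeR 5 on those 25713. The authors' deposited table marks 6 genes as significant, Atf3 among them and Ifrd1 not, and since these values chose the genes nothing is read from it. The list medians of log2 fold change in this contrast were 0.14 for the bZIP genes, -0.10 for the integrated stress response, -0.02 for stress-activated MAP kinases, 0.51 for ATF3-regulated genes and 0.35 for TPA-induced sequence genes. They were -0.06 for the corepressors, -0.20 for NF-kB and -0.19 for the myogenic factors, against 0.01 over all tested genes. All 5 TPA-induced sequence genes and 16 of 24 bZIP genes had positive values. Jdp2 had 0.85 ± 0.33 (SE), Fosb 2.16 ± 0.72, Fos 1.37 ± 0.76, Ddit3 0.80 ± 0.27 and Atf4 -0.10 ± 0.15. In the same contrast the median was 1.98 over 6 adipocyte markers, whose sum was 12.4, 3.76 and 137.7 CPM in aged GW8510 libraries 1, 3 and 4 and 18.0, 6.01 and 24.1 CPM in aged vehicle libraries 1, 3 and 4, so that only aged GW8510 library 4 stood above the aged vehicle libraries. The median was 0.53 over 7 smooth muscle and pericyte markers, 0.43 over 8 endothelial and 0.28 over 8 macrophage markers, and each of those markers had a positive value. Satellite cell markers had a median of -0.45, with 4 of 5 below 0, muscle fibre markers 0.03 and Schwann cell markers 0.08. Fibroblast markers had 0.29, tendon cell 0.39, erythroid 0.45 and neutrophil and mast cell markers 0.51. Aged vehicle library 4 was the lowest of all libraries for 6 of 7 smooth muscle and pericyte and 6 of 8 endothelial markers. For 5 of 8 macrophage markers it was aged vehicle library 1. Smooth muscle and pericyte markers summed to 397.3 to 468.9 CPM in aged GW8510 and 337.0 to 465.1 in young vehicle, with none at 0. In aged vehicle libraries 1, 3 and 4 the sum was 331.8, 449.9 and 141.4 CPM. The part of these markers in the Atf3 and Ifrd1 levels was not tested.

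The genes whose profile was most like that of each gene were found as those with the smallest root mean square difference of log2 CPM, centred on each gene's own mean, over the 9 libraries. Among 11398 genes the 5 closest to Atf3 were Tmem178b (0.66), Nr4a3 (0.66), Kl (0.70), Cmip (0.70) and Ret (0.71), where the median over all genes compared was 1.46. Nr4a3, an orphan nuclear receptor gene induced by exercise and cAMP, had 17.7, 18.2 and 78.8 CPM in aged GW8510, 9.93, 14.1 and 6.50 CPM in aged vehicle and 31.5, 30.7 and 28.8 CPM in young vehicle. Like Atf3, it was highest in aged GW8510 library 4. Ret, the receptor tyrosine kinase of the GDNF family, had 4.0, 5.40 and 9.26 CPM in aged GW8510, 2.8, 5.60 and 1.21 CPM in aged vehicle and 12.7, 13.2 and 10.2 CPM in young vehicle. Kl, which encodes klotho, averaged 0.880 ± 0.340 CPM in aged GW8510, 0.201 ± 0.208 in aged vehicle and 2.27 ± 0.377 in young vehicle, and 1 aged vehicle library was under 3 counts. The 5 closest to Ifrd1 were Cnnm2 (0.17), Lamb3 (0.20), Csrp1 (0.22), Vmn2r115 (0.22) and Gltp (0.23), where the median was 0.48. Csrp1, a LIM-domain protein gene, had 41.0, 45.6 and 54.4 CPM in aged GW8510, 24.9, 42.1 and 21.0 CPM in aged vehicle and 41.9, 33.9 and 35.8 CPM in young vehicle. Between Atf3 and Ifrd1 the difference was 1.21, below the median around Atf3 (1.46) and above that around Ifrd1 (0.48). Around its own mean, the root mean square was 1.43 for Atf3 and 0.39 for Ifrd1. Ifrd1 was number 1045 in the order of likeness to Atf3, and Atf3 number 11161 in that to Ifrd1. The measure includes the libraries on which both genes were picked, and it depends on how far a gene's level ranges.

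**Figure D5:**
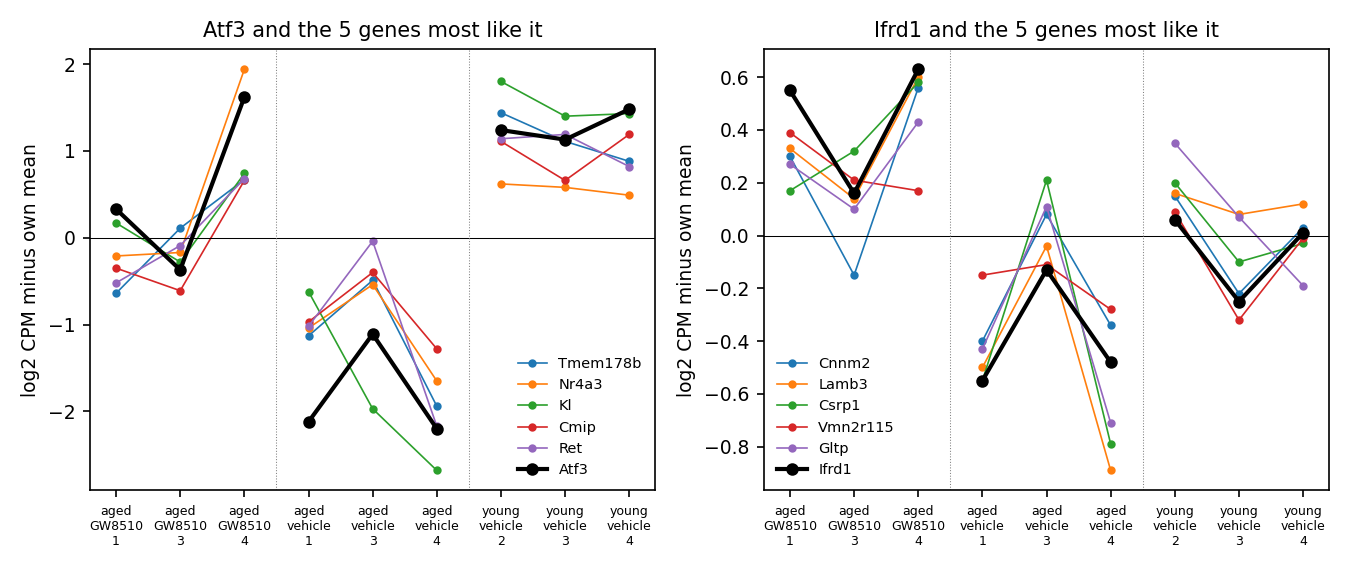
Log2 CPM minus each gene's own mean over 9 libraries for Atf3 (left) and Ifrd1 (right), in black, and for the 5 genes most like each. Lines join libraries of 1 group and imply no order, and the vertical range is wider for Atf3, which spans -2.20 to 1.62, than for Ifrd1, which spans -0.55 to 0.63.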

How the data were processed

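The authors deposited 3 tables, 1 per pair of groups, with expected counts and TPM values per library, a mean TPM per group, and for the pair a fold ratio, its log2 value and p-values before and after adjustment, per the file headers. The submitters' processing notes name GRCm38, CASAVA, HISAT2, StringTie, RSEM, DESeq2 and edgeR without versions or roles. The gene annotation and strand setting are not given in the sources used here. Of the expected counts, 91.4% were whole. They were rounded, genes were kept by filterByExpr (14384 of 55536), and edgeR 4.0.16 (R 4.3.3) was fitted with TMM scaling, all 9 libraries and 1 mean per group. Adjusted p-values are Benjamini-Hochberg over all tested genes, with a threshold of 0.05. SE is the size of the log2 fold change divided by sqrt(F). CPM uses TMM-adjusted totals, and log2 CPM a prior count of 2. Floors of 3 counts use TMM-adjusted totals and cover counting error only. The fit was tested on simulated data.

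Members, 8 gene lists and 11 marker lists were chosen with earlier results of these data known. Named genes are Atf3, Ifrd1, 13 relatives and partners, up to 4 called members per list, and the 5 genes most like each member with a mean of at least 1 CPM, leaving out clone-style symbols. Alternatives were other scalings, no filter, DESeq2 1.42.0 (on all genes with a count and, added after seeing the data, on the filtered genes), limma-voom (limma 3.58.1), only the groups compared, a replicate block, deposited TPM and each library left out.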

Additional observations from a re-analysis of the deposited data

How the results depend on the processing

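Atf3 kept its direction in every contrast under every alternative run, and Ifrd1 likewise. The Atf3 call in the mean of both 18-month groups over young vehicle held with DESeq2 size factors, library totals, no filter, DESeq2 on either gene set and limma-voom, and its log2 fold change ran from -2.16 to -1.60 with each library left out. Aged GW8510 over young vehicle ran from -1.29 to -0.18 for Atf3 with each library left out. The labels give groups shared replicate numbers. Of 7 same-numbered pairs 1 had a correlation of deviations above 0.1 (range -0.209 to 0.138), and a library correlated best with its own number in 4 of 14 cases. The labels do not say what the numbers stand for, and these few correlations cannot exclude a link between same-numbered libraries. With the replicate block the Atf3 value was -1.63 (adjusted p = 0.273).

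Counts of genes called depended on the setting. In the mean of both 18-month groups over young vehicle 526 became 1012 without the filter, 1325 with DESeq2 on the 25713 genes with a count, 1401 with DESeq2 on the 14384 filtered genes (added after seeing the data) and 19 with the replicate block, and ran from 73 to 775 with each library left out. It was 288 without aged GW8510 library 1, 269 without aged GW8510 library 3 and 319 without aged vehicle library 1, 131, 73 and 112 without young vehicle library 2, 3 or 4, and 775 without aged vehicle library 4. In aged GW8510 over aged vehicle 0 became 5 without the filter, 9 with DESeq2 on all genes and 11 on filtered genes, and ran from 0 to 2 (without aged vehicle library 3). In aged vehicle over young vehicle 175 became 699 without the filter, 943 with DESeq2 on all genes and 974 on filtered genes, 50 with only the 6 libraries compared and 5 with the replicate block, and ran from 19 to 148. In aged GW8510 over young vehicle 108 became 553 without the filter, 798 with DESeq2 on all genes and 870 on filtered genes, 469 with only the 6 libraries compared and 8 with the replicate block, and ran from 25 to 594. List members called numbered 8, or 19 without the filter, 17 with DESeq2 on either gene set and 0 with the replicate block, and ran from 3 (without young vehicle library 2) to 15 (without aged vehicle library 4). The cause was not tested. A fit with the block has fewer degrees of freedom. Replicate number 2 also occurs only in young vehicle, so in that fit the block takes up young vehicle library 2. Depth was not small for either gene, whose lowest counts were 108 for Atf3 and 923.47 for Ifrd1.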
